A study of Vitis vinifera with 4 samples.

Results

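Clusters of MYBPA1 binding events on grapevine DNA are described here, meaning stretches in which 3 or more events followed each other at most 1000 bp apart. Of the 30318 events in the authors' list, 29836 lay on chr01 to chr19, and 1564 of these (5.24%, 95% Wilson interval 4.99 to 5.50%) stood in 486 such clusters. A further 6874 events stood in pairs and 21398 had no other event within 1000 bp. The members were selected on the positions of the events alone, so how many there are and how closely they lie is a description, while the signal value of an event took no part in the choice. An event is a place where the authors' caller put binding, each is 201 bp wide, and distances are between the middle bases of events.

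MYBPA1 belongs to the MYB family of plant transcription factors and is known in grapevine for switching on genes of proanthocyanidin synthesis, the pathway that makes the condensed tannins of berry skin and seed. Plant MYB proteins of this kind bind short, AC-rich DNA elements, and promoters can hold several such elements close together. GEM, the caller that the name of the list gives, is built to place neighbouring events that share reads.

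The assay was DAP-seq (DNA affinity purification sequencing): a tagged protein is added to naked genomic DNA, and the fragments it holds are amplified by PCR and sequenced. There were 4 libraries, 2 for MYBPA1 and 2 for pIX-HALO, the HALO tag without a transcription factor. Both groups had the same DNA, from young frozen leaves of cultivar Pinot Noir, and protein made in rabbit reticulocyte lysate, so neither leaf chromatin nor partner proteins of the plant were present. The authors deposited 1 list with no values per library, its depth is unknown, and no difference below could be set against a spread between replicates or tested over samples. Intervals therefore cover counting error only, and they treat events as independent although cluster members share fragments and neighbours. The genome build of the coordinates is not given in the sources used here, so no cluster was assigned a gene and no sequence is shown.

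Most clusters were small. Of the 486, 400 (82.3%) held 3 events, 70 held 4, 13 held 5, 2 held 6 and 1 held 7. From the first to the last centre they covered a median of 1000 bp (95% interval 964 to 1043), with quartiles of 722 and 1248 bp. Clusters of 3 covered a median of 928.5 bp and those of 4 a median of 1390 bp. The median distance from a cluster to the nearest event outside it was 4150 bp, and the next cluster on the chromosome began a median of 550544 bp further on. Of 467 neighbouring clusters, 6 lay within 10 kb of each other. The rule itself sets part of this separation, since any event within 1000 bp would have been joined. Such distances are not given here for pairs or events alone.

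On either side of the limit of 1000 bp, events had nearly the same median signal. In 38 clusters the largest gap was 951 bp or more, and their 125 events had a median signal of 52.0. Another 24 sets, with 72 events, would have become clusters had gaps of 1001 to 1050 bp been joined, and their median signal was 53.2. The median of the highest signal was 96.65 in the 38 clusters and 84.5 in the 24 sets. No intervals were computed here, and neither difference was tested.

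The signal value, for which no scale is stated, ran from 22 to 2938 among the members. Their median was 54.9 (95% interval 53.0 to 57.2), compared with 53.4 (52.4 to 54.4) in pairs and 48.0 (47.4 to 48.0) for events alone. The intervals of clusters and pairs overlapped, and neither overlapped that of events alone. The median of members was above that of events alone on 18 of 19 chromosomes, chr06 being the exception with 48.5 against 49.0. Against all other events of the chromosome, pairs included, it was above on 16, with chr06, chr12 and chr19 the exceptions. Members made up 5.24% of the events and carried 6.29% of the summed signal. The top 1% of the list begins at a signal of 391, and 0.915% of all events on chr01 to chr19 reached it. Of the members 24 did (1.53%, 1.03 to 2.27%), against 1.57% (1.30 to 1.89%) in pairs and 0.659% (0.559 to 0.777%) of events alone. A −log10 q of at least 5 was reached by 65.2% of members (62.8 to 67.5%), where the share of all events was 58.5%, that in pairs 64.2% and that of events alone 56.2%. On these measures, in the list as deposited, clusters stood near pairs, and both stood above single events.

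Signal was highest in members with a very near neighbour. Neighbours with centres no more than 200 bp apart share bases in the list and are called close here. The 587 members with a close neighbour had a median signal of 68.2 (63.9 to 75.9). The 977 members with none had 50.9 (48.0 to 53.0). This median was still above the 48.0 of events alone, and the intervals met only at 48.0. Pairs showed the same split, with a median of 62.1 (59.5 to 64.6) in 2576 events of close pairs and 49.05 (48.0 to 50.5) in 4298 events of spaced pairs. Whether the signal of overlapping events is shared out between them by the caller was not tested.

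**Figure D1:**
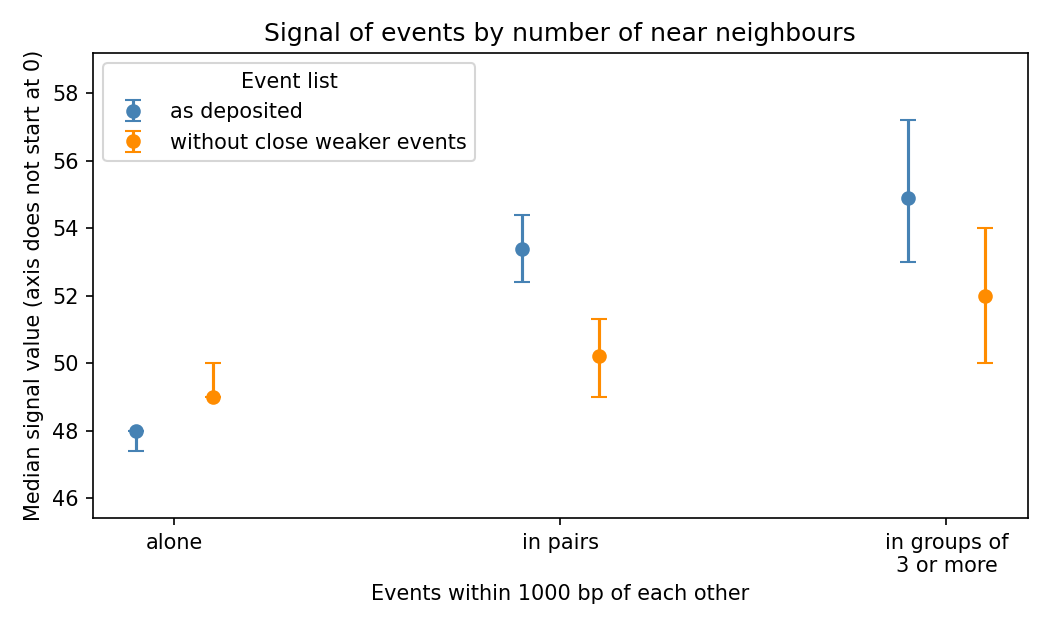
Median signal value (vertical axis, not starting at 0, no stated unit) of events alone, in pairs and in clusters of 3 or more, as deposited and with weaker events near a stronger one (200 bp) removed. Points are medians and bars are 95% binomial intervals of the median. The cluster median falls from 54.9 to 52.0 and that of events alone rises from 48.0 to 49.0.

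Close events also decided how many clusters there were. In 260 clusters (53.5%) at least 1 gap was at most 200 bp, and in 226 every gap was longer. When each event within 200 bp of a stronger one was left out, 310 members (19.8%) were lost, against 18.7% of events in pairs and 5.35% of all events. Then 269 clusters with 845 events remained (2.99% of the shortened list, 2.80 to 3.20%). Of the original 486, 166 came down to a joined pair and 51 to single events. All 226 clusters without a close gap were among the 269, as the rule requires, together with 43 that had one. None of the 37 clusters with close gaps throughout was kept, which the rule also requires for clusters of 3 or 4 events without ties. After this recount 235 clusters held 3 events, 30 held 4 and 4 held 5. The median signal of the 845 events was 52.0 (50 to 54.0), compared with 49.0 (49.0 to 50) for the events then alone. The share in the top 1% was then 1.30% (0.728 to 2.32%) against 0.844% (0.733 to 0.971%) alone, and the share with a −log10 q of at least 5 was 61.3% (58.0 to 64.5%) against 58.2% (57.5 to 58.8%). Events then in pairs had a median signal of 50.2 (49.0 to 51.3). Their share in the top 1% was 1.38% (1.08 to 1.76%), and 58.7% (57.3 to 60.1%) had a −log10 q of at least 5. These intervals of pairs overlapped those of clusters. The intervals of clusters and single events thus met or overlapped on all 3 measures once close weaker events were gone. The recount itself bears on this, because it selects on signal and changes the classes. Stronger events of close pairs and of reduced clusters could then count as alone, and events alone rose from 21398 to 22760.

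The gaps inside clusters showed how the events were spaced. The 1078 gaps had a median of 421 bp, against 301 bp for the 3437 gaps of pairs. Gaps of 100 to 149 bp were the most frequent for their width, with 132 (12.2%) in clusters and 546 (15.9%) in pairs. Gaps under 50 bp were few, with 7 in clusters and 50 in pairs. From 501 to 1000 bp there were 468 gaps in clusters (43.4%) and 1078 in pairs (31.4%). A cluster is joined through any chain of gaps, so the rule itself bears on this difference in gap length. The 7 events on chr04 described below joined 4 long gaps and 2 close ones.

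**Figure D2:**
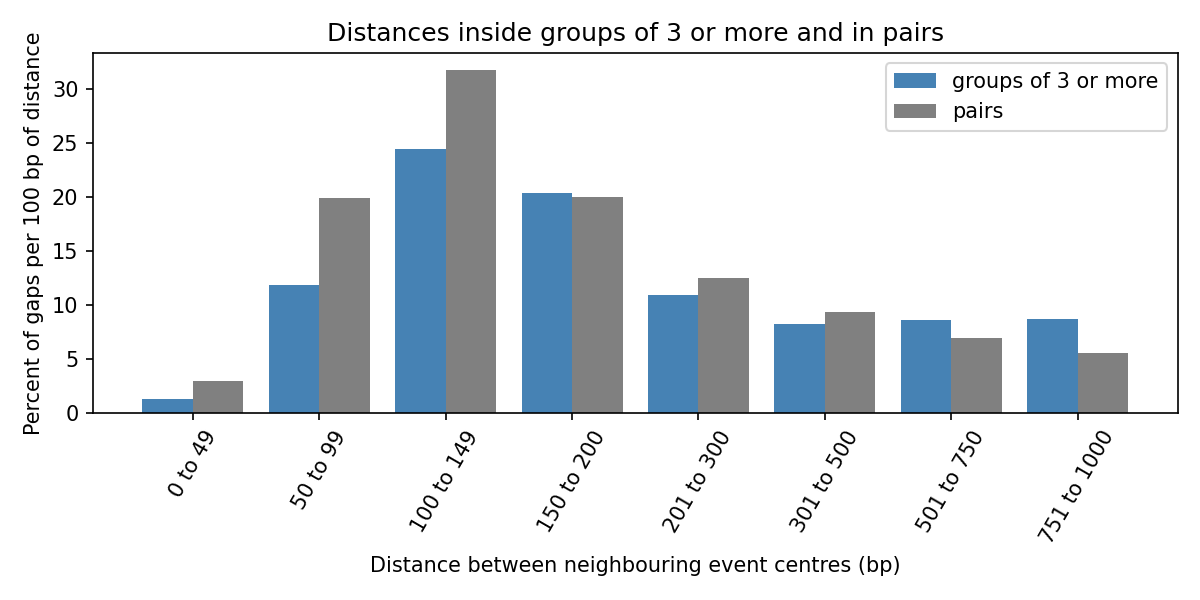
Share of gaps between neighbouring event centres, in percent per 100 bp of distance (vertical axis), by distance band in bp (horizontal axis), for clusters of 3 or more (blue) and pairs (grey). Both peak at 100 to 149 bp, at 24.5% in clusters and 31.8% in pairs, and above 500 bp the bars of clusters are the higher ones.

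Neighbouring members were unequal in signal. Across the 1078 gaps, the median ratio of the stronger to the weaker neighbour's signal was 1.76 (95% interval 1.69 to 1.84). In pairs the ratio was 1.66 (1.63 to 1.71), and the intervals overlapped. In 448 gaps (41.6%) the ratio was at least 2, against 37.5% in pairs. The ratio was 1.82 (1.67 to 1.98) for close neighbours and 1.74 (1.66 to 1.83) for those 201 to 1000 bp apart, with overlapping intervals. The log2 signals of neighbours were weakly related, with a Pearson r of 0.237 over 315 close gaps and 0.129 over 763 longer gaps. In pairs r was 0.333 over 1288 close gaps and 0.119 over 2149 longer ones. These values are descriptions, since neighbours come from the same libraries and a member can enter 2 gaps.

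Within a cluster, the signal of the strongest event was 1.58 times that of the second (median, 1.51 to 1.71) and 2.75 times that of the weakest (2.54 to 2.93). It exceeded the second by at least 2 times in 168 clusters (34.6%), by at least 5 times in 28 and by at least 10 times in 4. In 52 clusters (10.7%) the strongest was under 1.5 times the weakest. So some clusters had 1 leading event and others were level, and the median cluster lay between these forms.

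The place of the strongest event differed with spacing. Among 36 clusters of 3 with both gaps close, the middle event was the strongest in 25 (69.4%, 53.1 to 82.0%), the first in 6 and the last in 5. Median signal there was 45.4 (36.7 to 68.2) for the first event, 114.6 (74.4 to 188.4) for the middle and 54.4 (37.8 to 86.8) for the last. The middle median was thus the highest of the 3, and its interval lay above that of the first event and overlapped that of the last. Among 199 clusters of 3 with both gaps over 200 bp, the middle was the strongest in 71 (35.7%, 29.4 to 42.5%), the first in 71 and the last in 57. Their medians were 51.0 (46.4 to 55.8), 53.5 (48.3 to 60.6) and 47.0 (44.0 to 52.7) from first to last, with overlapping intervals.

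The remaining 165 clusters of 3 had 1 close gap and 1 longer one. In these, the event standing apart had a median signal of 47.0 (43.5 to 53.2), and it was the weakest of the 3 in 88. The inner event of the close pair, which is always the middle one, had 75.9 (66.4 to 87.5), and the outer had 68.8 (61.2 to 82.2). The event apart was thus near the level of events alone, and both events of the close pair were above it.

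**Figure D3:**
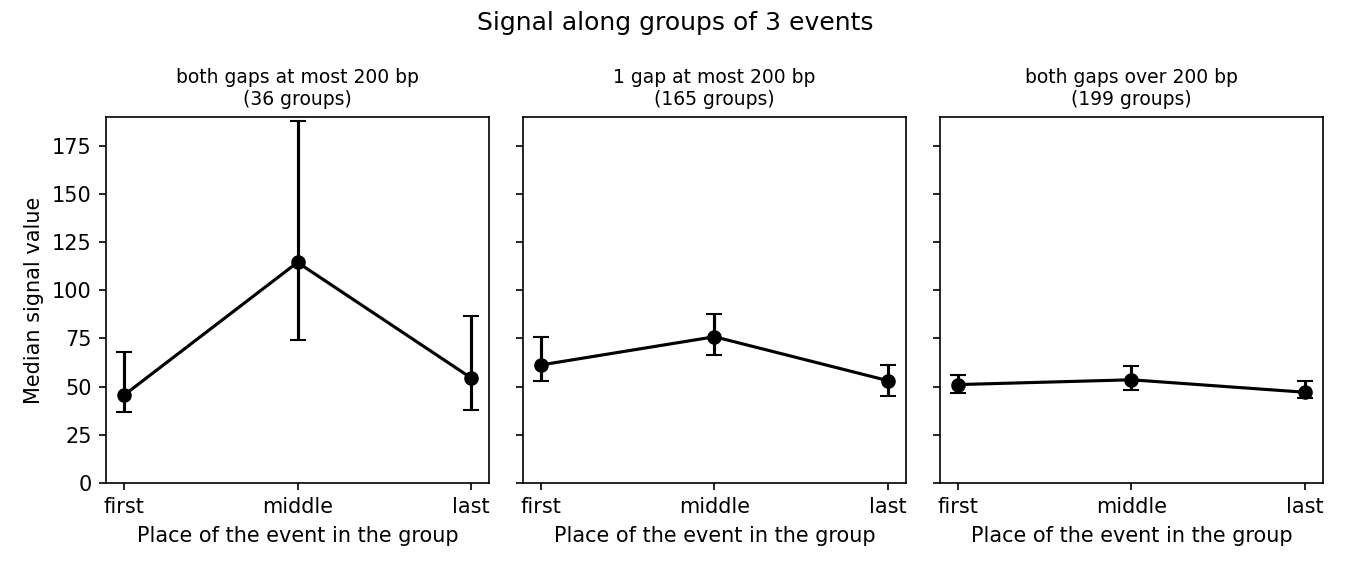
Median signal value (vertical axis, from 0) of the first, middle and last event along the chromosome in clusters of exactly 3, by whether both, 1 or none of the gaps were at most 200 bp. Bars are 95% binomial intervals of the median. The middle event rises to 114.6 where both gaps are close, and the line is nearly flat, from 47.0 to 53.5, where both are longer.

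The 16 clusters of 5 or more events held 84 members. The only cluster of 7 lay on chr04, with centres from 20615325 to 20617961. Its signals, in order along the chromosome, were 121.8, 57.0, 151.0, 79.8, 44.2, 63.2 and 65.4. Each had a −log10 q of at least 6.38, so this largest cluster had no event near the limit of the list, and its strongest event was well short of the top 1%. With close weaker events left out, 5 of its events remained, 4 of them joined.

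A cluster of 6 on chr08, from 12830594 to 12832338, was the most uneven of the large ones. Its first 5 signals were 57.5, 157.6, 46.0, 95.2 and 62.6, and the last, 941 bp beyond them, was 827.0. Of the 4 gaps among its first 5 events 3 were close, and the recount left 3 events and no cluster. The other cluster of 6, on chr12 from 1243273 to 1245436, had signals of 71.2, 32.3, 36.6, 56.0, 25.9 and 65.1. Its gaps were 406, 387, 572, 612 and 186 bp, and the recount removed only the event of 25.9.

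The 13 clusters of 5 ranged widely in strength. On chr07, from 5112954 to 5114718, the signals were 43.9, 283.1, 227.9, 139.0 and 453.0. This was the strongest of the 13 in summed signal, at 1147, and its lowest −log10 q was 5.81. On chr05, from 3993120 to 3995225, a middle event of 426.5 stood between 63.0 and 51.5 on one side and 94.5 and 27.5 on the other. On chr02, from 7292875 to 7294758, an event of 380.0 had neighbours of 74.0, 65.0, 47.2 and 96.8. A chr03 cluster, from 14341180 to 14342329, had 31.7, 32.2 and 23.3 followed after 719 bp by 354.7 and 95.3. These last clusters were each led by 1 event with several times the signal of the rest.

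On chr14, from 12127756 to 12129066, the signals were 98.4, 220.2, 81.1, 61.3 and 47.0. On chr17, from 6961139 to 6962933, the last event had 242.6 and the others 87.0, 36.0, 83.0 and 45.4. On chr19, from 6153084 to 6154680, the fourth event had 207.1 and the others 50, 40.0, 43.9 and 38.1. All 3 came down to 3 events in the recount. On chr10, from 6401596 to 6404240, the signals were 32.0, 136.1, 35.9, 63.0 and 52.0 over 2644 bp, the longest span of any cluster. Without the event of 35.9, its other 4 events formed 2 joined pairs.

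Other large clusters had no strong event. On chr08, 2 clusters of 5 lay 28295 bp apart. The first, from 6981418 to 6983340, had 52.5, 47.8, 39.6, 35.4 and 56.0. The second, from 7011635 to 7013498, had 27.0, 27.0, 34.5, 36.5 and 54.0, and 4 of its 5 events had a −log10 q under 5. On chr02, from 7640469 to 7642967, the signals were 71.0, 27.2, 27.8, 35.0 and 57.0. On chr06, from 14261155 to 14263492, they were 33.0, 76.0, 59.0, 37.0 and 54.0, and on chr12, from 6554925 to 6557130, they were 53.0, 39.0, 62.3, 44.7 and 28.3. Including the chr12 cluster of 6, 6 of the 16 had no event of signal 80 or more, and 8 had one of 200 or more. In the recount 4 of the 16 kept 5 joined events, 6 kept 4, 3 kept 3 and 3 fell below 3. The 4 that kept 5 were those on chr02 (7640469 to 7642967), chr06, chr08 (7011635 to 7013498) and chr12 (1243273 to 1245436), each with a highest signal under 80.

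**Figure D4:**
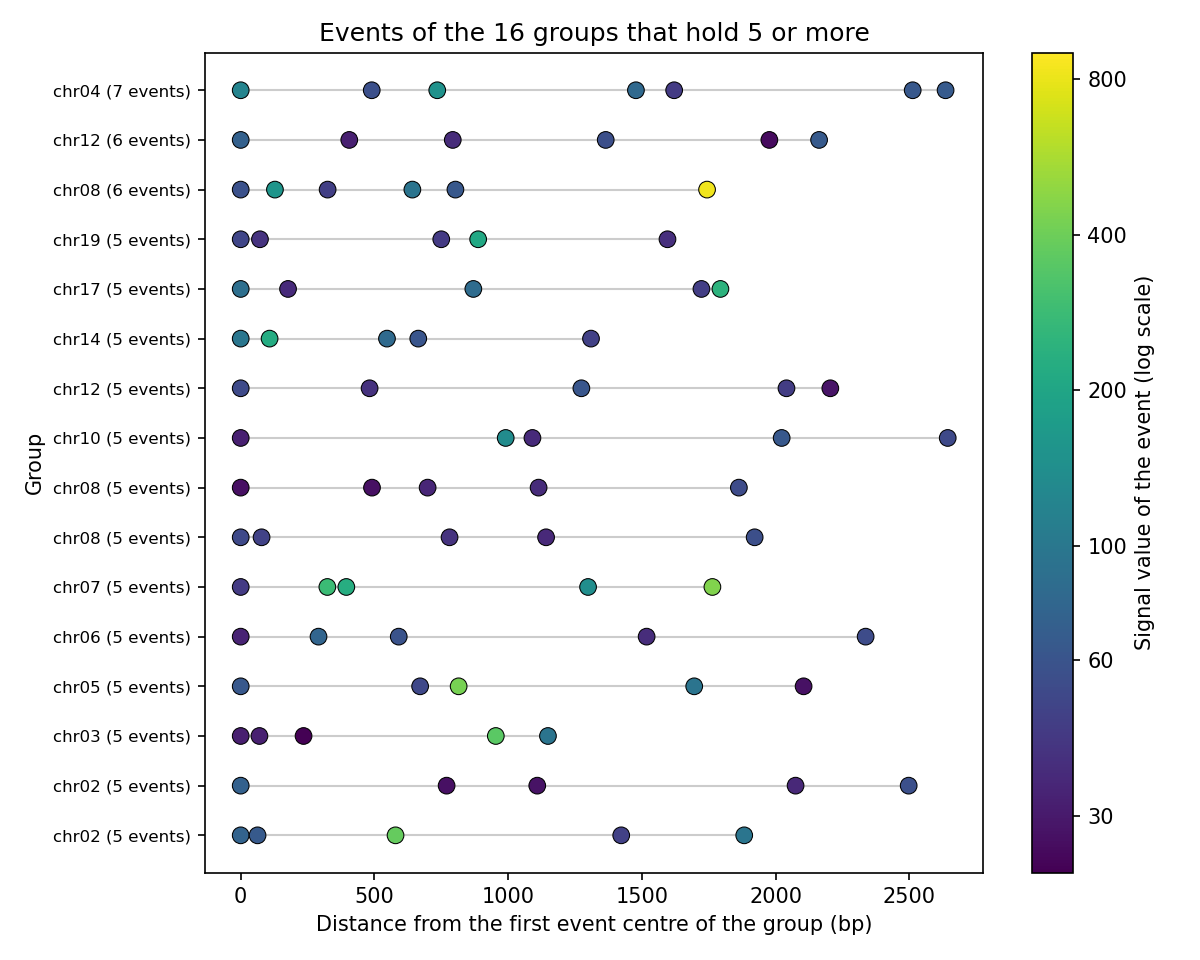
Events of the 16 clusters with 5 or more members, placed by distance in bp from the first event centre (horizontal axis), 1 cluster per line with its chromosome. Colour gives the signal value on a log scale. The event of 827.0 at the end of a chr08 cluster stands out, and several lines hold no event of 80 or more.

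At the upper end of signal, 20 clusters (4.12%, 2.68 to 6.27%) held an event of the top 1%, and 4 of these held 2. They lay on 14 chromosomes. A cluster has 3 or more events that could reach the top 1%. Its share is therefore not comparable with the 0.915% of all events, and the like measure is the 1.53% of members, against 1.57% in pairs. The strongest was a chr10 cluster from 16328119 to 16328944 with signals of 263.4, 2938 and 189.8, at gaps of 473 and 352 bp. The middle event had a p too small for the list to write. Its neighbours had a −log10 q of only 12.6 and 8.6, the last being the lowest of the 189 members with a signal of 150 or more, whose median was 50.8. The flanks of this cluster thus had a high signal with a modest −log10 q.

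Next was a chr10 cluster of 4 from 23163735 to 23164552, with 444.9, 50.1, 83.0 and 1197. Both outer events were in the top 1%, 817 bp apart, with 2 weaker events between them. On chr16, from 22222239 to 22223165, the signals were 80.1, 692.5 and 613.0, and on chr18, from 4703093 to 4704089, they were 77.0, 473.0 and 744.0. The strong events of the chr16 cluster lay 871 bp apart, and those of the chr18 cluster 74 bp apart, so the latter overlap in the list. The fourth cluster with 2 such events, on chr04 from 22603539 to 22605240, had a highest signal of 428.4 and a second of 395.6. It is named after its values were seen. The largest summed signals were 3391 and 1775 in these chr10 clusters, 1386 on chr16, 1294 on chr18 and 1246 in the chr08 cluster of 6.

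Other clusters had 1 high peak beside weaker events. On chr11, from 5366537 to 5366990, the signals were 880.5, 100.9 and 34.6, so the strongest stood first. Also on chr11, from 2437166 to 2438021, an event of 750.1 lay between 107.9 and 105.1 at 92 and 77 bp, with 29.2 further on. On chr17, from 8804709 to 8805644, the signals were 94.0, 736.0 and 358.1, the last 2 only 29 bp apart. On chr14, from 29822514 to 29823268, an event of 715.1 stood between 66.9 and 61.0, and on chr18, from 7221036 to 7222534, one of 654.2 stood among 52.0, 36.0 and 39.8. The chr18 peak was 12.6 times the second event of its cluster, the highest such ratio of the 486.

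In certain clusters no member was weak. Besides the chr10 cluster of 2938, the highest lowest-member signal was found on chr18 from 23991714 to 23992804, with 176.0, 216.0 and 338.0 at gaps of 504 and 586 bp. The 3 events of chr11 from 18761327 to 18762343 had 192.0, 167.3 and 202.6. Those of chr07 from 21864253 to 21865218 had 158.0, 167.6 and 252.4, and those of chr12 from 21219032 to 21219332 had 146.6, 193.8 and 438.6. The chr18 cluster had no close gap, whereas the chr07, chr11 and chr12 clusters each had at least 1. In all, 90 clusters (18.5%) had every member at or above the list median of 49.1.

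At the other end, 44 clusters (9.05%) lay wholly below that median. The median splits the list evenly, so any grouping of events can leave sets wholly on either side. No reference share was computed for these clusters or for the 18.5% at or above the median. In 25 clusters no event reached a −log10 q of 5, in 100 only 1 did, in 195 exactly 2 did, and in 166 at least 3 did. Among all events on chr01 to chr19 the share reaching it was 58.5%, and whether these counts depart from it was not tested. The lowest peak, chosen after its values were seen, was in a chr06 cluster from 18379355 to 18380974, with signals of 27.0, 26.4 and 28.0. The −log10 q of its events was 2.78, 2.04 and 2.19, where the list ends at 2.0. Such a cluster would be lost with a slightly stricter list.

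In the shortest clusters the first and last centres lay closer together than the 201 bp width of a single event. On chr11, from 3221125 to 3221272, signals of 42.3, 285.9 and 109.0 fell within 147 bp. On chr07, from 874551 to 874710, 148.5, 163.3 and 35.2 fell within 159 bp, and on chr18, from 13805242 to 13805423, 87.8, 362.4 and 88.8 fell within 181 bp. Spans of 194 and 195 bp were found on chr10 from 21001836 to 21002030 (56.3, 188.4 and 44.4) and on chr01 from 21840783 to 21840978 (77.2, 266.9 and 66.9). The middle event was the strongest in all 5. Each came down to 1 event in the recount, which the rule requires where every other member lies close to the strongest event. The longest spans, after that of 2644 bp on chr10, were 2636 bp in the chr04 cluster of 7 and 2532 bp in a chr12 cluster of 4, from 23857778 to 23860310. That chr12 cluster had signals of 51.0, 93.6, 100.7 and 100.4 at gaps of 805, 892 and 835 bp, so its last 3 events were level and all were nearly evenly spaced. Spans of 2498 and 2337 bp belonged to the clusters of 5 on chr02 (7640469 to 7642967) and chr06.

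Some clusters of 3 were evenly spaced too. On chr15, from 12056040 to 12057853, the gaps were 909 and 904 bp and the signals 45.0, 81.5 and 53.0. On chr17, from 7528057 to 7529734, the gaps were 836 and 841 bp and the signals 27.0, 41.2 and 96.0. A chr18 cluster, from 7464049 to 7465717, had gaps of 827 and 841 bp and signals of 61.9, 29.0 and 64.0. The gaps were 299 and 296 bp on chr03 from 1263816 to 1264411, with signals of 34.0, 29.2 and 25.9. They were 671 and 689 bp on chr12 from 15820838 to 15822198, with 27.0, 55.8 and 32.5. These are the 5 with the most equal gaps among clusters in which every gap was over 200 bp. Of 199 clusters of 3 with both gaps over 200 bp, 18 (9.05%) had gaps within 1.1 times of each other. The median ratio of the longer to the shorter gap was 1.75. No reference share was computed, so whether even spacing is more frequent than for unrelated gaps was not tested.

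Some clusters lay beside another. On chr18, 3 events from 33979151 to 33980271 were followed after 1336 bp by 3 more from 33981607 to 33982588. The signals were 29.0, 123.9 and 35.1 in the first and 52.0, 143.9 and 99.1 in the second. The first gap was 838 bp in the one and 841 bp in the other, and the middle event was the strongest in both. Their second gaps differed, at 282 bp in the one and 140 bp, a close gap, in the other. On chr06, 333.9, 44.1 and 33.0 (18710995 to 18711706) were followed after 2038 bp by 32.0, 32.7 and 90.3 (18713744 to 18714556). On chr13, 56.0, 25.0 and 53.0 (19962136 to 19963476) and 68.1, 42.6 and 40.4 (19968970 to 19969424) lay 5494 bp apart, and the nearest event before them was 264339 bp away.

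A few clusters were far from any other event. The most isolated, named after the values were seen, was on chr14 from 25872739 to 25873018, with 34.7, 74.4 and 37.9 and no other event within 97658 bp. A chr16 cluster from 7276266 to 7277379, with 29.5, 67.5 and 38.2, had none within 79405 bp. Isolation of this order was rare, since only 2 clusters had no other event within 50 kb, and 107 had one within 2000 bp.

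Every numbered chromosome held clusters. Counts ran from 13 on chr19 to 42 on chr18, and 1.06 clusters were found per Mb of the span from first to last event. Chr11 had 1.55 per Mb, chr17 1.48 and chr03 1.41, whereas chr19 had 0.528 and chr09 0.740. The share of a chromosome's events that stood in clusters was highest on chr03, at 7.23% (5.93 to 8.80%), and lowest on chr19, at 3.42% (2.57 to 4.53%). These intervals did not overlap, but both chromosomes were picked as the extremes after the values were seen. Their members came in 29 and 13 clusters, and intervals that count events as independent are too narrow for that. A difference between chromosomes was not tested, and the other 17 lay between 4.41 and 6.64%. On chr09 only 6 of 17 clusters were kept without close weaker events (35.3%), the lowest share, and its members had the highest median signal, 77.6 against 47.0 for the other events of chr09. On chr02, 14 of 20 (70.0%) were kept, the highest share.

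**Figure D5:**
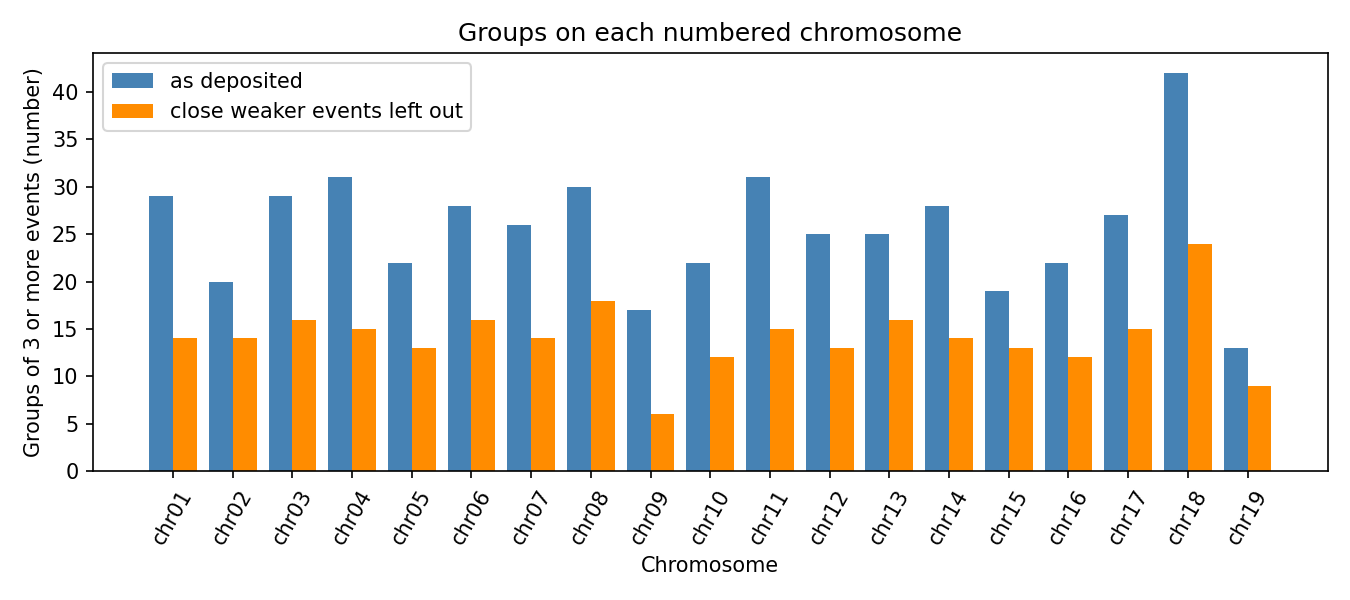
Number of clusters of 3 or more events on each numbered chromosome (vertical axis, from 0), as deposited (blue) and with weaker events near a stronger one (200 bp) removed (orange). Chr18 has the most in both counts, 42 and 24, and chr09 falls from 17 to 6.

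Clusters were counted in windows of 1 Mb. Of 467 windows of 1 Mb with an event, 286 held a cluster, 160 of them exactly 1, 76 of them 2 and 50 of them 3 or more. No reference for the spread of clusters over windows was computed, so crowding was not tested. The highest count was 6 clusters, on chr03 from 1000001 to 2000000 and on chr06 from 18000001 to 19000000, among 106 and 104 events in that order. Leaving out its own cluster, a member had a median of 78.0 other events in its window, against 76.0 for events in pairs, also without the partner, and 75.0 for events alone. Members thus came from windows only slightly richer in events than those of other events.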

How the data were processed

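The 4 DAP-seq libraries (2 MYBPA1, 2 pIX-HALO) were grouped by the protein named in the labels. Per the submitters' processing notes, the authors used fastp 0.21.0 and Bowtie2 2.0. The caller is known only from the list's name, GEM, with settings, control and use of both MYBPA1 libraries not stated there. In the deposited list the authors give a signal value of unstated scale, a −log10 p, a −log10 q and a display score per event, the score being unused here. These values, each peak's own, are the authors', and decimal commas were read as points. A p of 999 marks one too small to write.

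The centre of an event was its middle base, counted from 1. Sorted centres on chr01 to chr19 were joined at most 1000 bp apart, and clusters of 3 or more were kept. In the recount, events within 200 bp of any event of higher signal were left out (1 tied pair was kept). Medians have 95% binomial (order statistic) intervals and shares 95% Wilson intervals. No test was made, because the list has no values per library. Grouping was tested on simulated data. Clusters named are those of 5 or more events, the 10 with the highest signal, the 5 extremes of lowest-member signal, span, even spacing (every gap over 200 bp) and summed signal, and the 3 nearest neighbours. Clusters and lists were chosen with earlier results of these data known. Software was scipy 1.17.1, pandas 2.3.3 and numpy 2.4.6 in Python 3.11.15, with figures by matplotlib 3.10.9.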

Additional observations from a re-analysis of the deposited data

How the results depend on the processing

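Each of 8 values was recomputed under 6 alternatives, and values that left their interval (counts, those that moved by over 1.5 times) follow. Against 486 clusters, 1564 events, 5.24% of events, a span of 1000 bp, a signal of 54.9 and 44.7% of clusters with the strongest event not at an end, leaving out close weaker events gave 269, 845, 2.99%, 1188 bp, 52.0 and 36.8%. Joining at 500 bp gave 143, 444, 1.49%, 476 bp, 57.4 and 55.9%, and joining at 2000 bp gave 1186, 3954, 13.3%, 1840.5 bp and 40.1% (signal 53.45, within its interval). Events with a −log10 q of at least 5 gave 159, 508, 2.91% and a signal of 84.7, and the stronger 50% of events gave 112, 354, 2.37%, 932.5 bp and 96.5. These selections raise signal by construction, and the share of clusters with a top 1% event went from 4.12% to 7.55% and 11.6%. Adding chr00, with 9 clusters of 3, moved none of the 8. The ratio of the strongest to the second event stayed between 1.52 and 1.58 throughout. Cluster number thus moved with the joining distance, close events and the limit of the list, and weaker events missed at the unknown depth could add members. Leaving out a replicate was not possible with 1 list. No paired analysis was possible because no event has a value for each library.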
